A study of Mus musculus with 8 samples.

Results

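The kinesin, dynein and dynactin genes encode the motors that carry cargo along microtubules. They were taken as the array probes whose gene name starts with Kif and a digit, Dync or Dynl, or is Klc1 to Klc4 or Dctn1 to Dctn6. The rule found 93 probes of 62 gene names among 55681 non-control probes. Of these, 78 probes of 54 genes were measured, meaning that the scanner software called them well above background on at least 4 of 8 arrays. The same filter kept 41378 probes in all, and every test below was adjusted over those.

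The arrays measured RNA of medium spiny neurons (MSNs), which make up most of the striatum and send its GABAergic output, from male mice at 4 weeks of age. The R6/2;Scn4b-Venus group (4 arrays) and the WT;Scn4b-Venus group (4 arrays, called control) both carry Venus, a fluorescent protein that reports the sodium channel subunit Scn4b. Only the R6/2 group also carries the R6/2 transgene, exon 1 of human HTT with an expanded CAG repeat, a model of Huntington's disease. Live cells with Venus fluorescence (propidium iodide excluded) were collected by cell sorting, and 4 to 20 ng of total RNA per sample was labelled with Cy3. Whether each array holds 1 mouse or several is not given in the sources used here, so p-values measure the spread between these samples.

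Kinesins walk mostly towards the plus end of microtubules, which in an axon points to the terminal, and cytoplasmic dynein walks towards the minus end, back to the cell body. Dynactin is the large cofactor that lets dynein bind cargo and run over long distances. MSNs send long axons to the pallidum and the substantia nigra, and huntingtin binds motor adaptors, which is why axonal transport is a recurrent topic in Huntington's disease.

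Levels are log2 signal relative to the 75th percentile of the array, and a difference is R6/2 minus control on that scale, so that 1 is a 2-fold difference. A level is compared between arrays of the same probe only. Where a gene has several measured probes, the one with the highest mean level stands for it. The plus or minus after a mean is the SD of 4 arrays, and that after a difference is its standard error from the fit.

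The reading of several motor genes depends on which probe is taken, so the first 30 bases of the probes concerned are shown, 5′ to 3′, with their mm9 positions. Both probes of Kif1b lie on chr4, minus strand, at chr4:148550431-148550490 (annotated in the files to RefSeq NM_207682) and chr4:148608412-148608471 (NM_008441).
Kif1b A_55_P2058933: cttgcatcacagaactgctagtgaacgagg
Kif1b A_65_P12993: cttctgatccttctagcatagcacattgtt
The probes of Kif5a lie on chr10, minus strand, at chr10:126662797-126662856 (NM_001039000) and chr10:126666209-126666268 (NM_008447).
Kif5a A_51_P107020: aaatgttgcatgccggcgtggaagacaaaa
Kif5a A_55_P2167070: tcaaaaccaaacagaaacatttgctaaaaa
The probes of Kif17 lie on chr4, plus strand, at chr4:137857341-137857400, chr4:137852169-137854171 (a probe split over an intron) and chr4:137842918-137842977.
Kif17 A_55_P2010672: gatccagctgcctgctgctatctgctttca
Kif17 A_51_P442023: ccacacatgcaggaggaagacaggtataag
Kif17 A_55_P2010681: agcaggcacgtttacttgtgtggaatttcg
The probe pairs of Dync1i1 (chr6, plus strand, chr6:5977935-5977994 and chr6:5977977-5978036) and of Dctn6 (chr8, minus strand, chr8:35153692-35153751 and chr8:35153655-35153714) overlap. For these, the 30 bases that hold the overlap are shown, with the bases shared with the partner in capitals.
Dync1i1 A_55_P2090429: atttattgtaatGTGCTGCATGGAACATAT
Dync1i1 A_55_P2150496: GTGCTGCATGGAACATATttatttgaaagc
Dctn6 A_55_P2001228: gacttgaGTTGGAGAGAGGTGGGTCCTATT
Dctn6 A_51_P357085: GTTGGAGAGAGGTGGGTCCTATTgtaacga
Exon and UTR positions of the probes were not determined here.

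No motor gene passed the threshold in R6/2 MSNs at this age. In such samples fewer cells of a type and less RNA per cell cannot be told apart. With limma and Benjamini-Hochberg adjustment over all 41378 probes, 0 of the 78 measured probes had an adjusted p under 0.05, and the smallest was 0.634. Over all tested probes 1 passed, which is 0.00242%. At an unadjusted p under 0.05 there were 4 motor probes (5.13%), against 7.02% of all tested probes. Of these 4, 3 were higher in R6/2 (Kif1b A_65_P12993, Kif5a A_55_P2167070 and Kif7), where the background is 3.97%, and 1 was lower (Kif6), where it is 3.05%. The 3 higher probes were each well above background on 3 of 4 control arrays. In 2 probes (2.56%) the groups did not overlap, Kif5c and Kif6, both lower in R6/2. Over all tested probes the groups did not overlap in 4.57%, and were separate and lower in R6/2 in 2.26% and higher in 2.31%. The motor shares are close to these or below them. Leaving out 1 array in turn gave 3 to 10 motor probes with separate groups, while the share over all tested probes was 7.14% to 8.72%. The 10 (12.8%, against 8.65% of all tested probes) came without control replicate 1.

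The differences of the 54 genes scattered around 0. They were positive in 29 genes and negative in 25, with a median of 0.034, beside 55.5% positive and a median of 0.051 over all tested probes. Without control replicate 3 the motor median was -0.12. In 44 of the 54 genes the difference was under 0.5 in size. For 30 genes (55.6%) the 95% interval of the difference, not adjusted for the number of genes, lay within 2-fold either way, and for 8 genes it lay within 1.5-fold. By probe, 39 of 78 lay within 2-fold, against 44.6% of all tested probes.

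The precision followed the brightness of the probe. All 30 motor probes with a mean level over 1 had an interval within 2-fold, and their differences ran from -0.38 to 0.20. Among all tested probes that bright, 77.3% had such an interval and differences ran from -1.96 to 1.75. Among the 48 dimmer motor probes it held for 9 (18.8%), against 35.2% of all tested probes at those levels, and the differences ran from -1.78 to 1.59. All 4 probes at an unadjusted p under 0.05 are among these 48 (8.33%, against 7.39% of all tested probes at those levels). This split by brightness was chosen after seeing the data.

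The arrays differed in how many dim probes they detected. The share of probes well above background was 50.1% to 76.2% in control and 74.0% to 78.8% in R6/2 (66.6% ± 11.5 against 76.0% ± 2.01, SD, n = 4 each, two-sided exact permutation p = 0.114). Control replicate 1 was the lowest. Its dimmest probe called well above background had a level of -2.78, against -5.43 to -4.29 in the other control arrays and -5.56 to -4.96 in R6/2. Among all tested probes with a mean level under -3 the median difference was 0.22, and among those over 3 it was -0.035. The part of this in the dim motor probes was not tested. R6/2 replicate 4 is the sole array of the second slide, and leaving it out gives the comparison within the first slide.

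**Figure D1:**
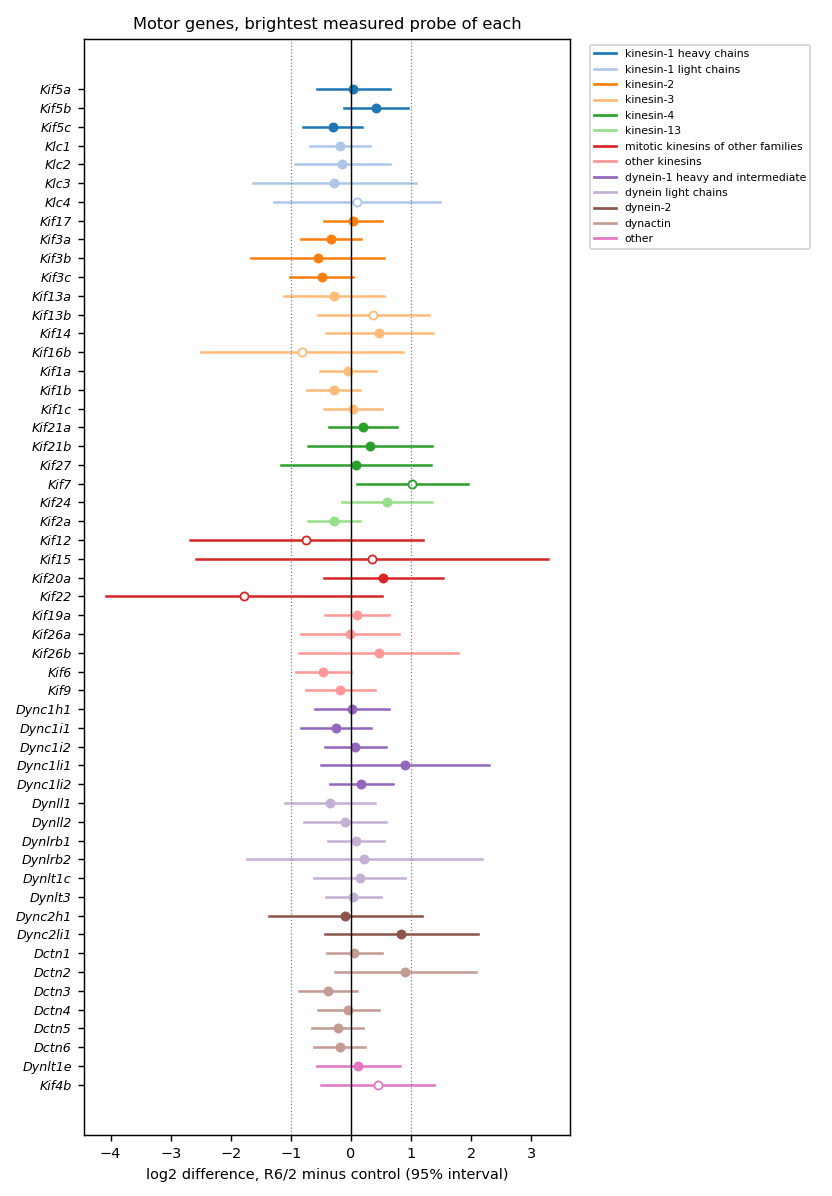
Log2 difference of R6/2 minus control (x axis) for the brightest measured probe of each of 54 motor genes, with its 95% interval, coloured by role. Open circles are probes not well above background on all 8 arrays, and dotted lines mark a 2-fold difference. Only the intervals of Kif7 (above 0) and Kif6 (below 0) leave 0 out, and 30 intervals stay between the dotted lines.

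Kinesin-1 is the main motor of fast transport towards the axon terminal, built of a pair of heavy chains, which hold the motor domain, and a pair of light chains, which bind cargo. By their brightest probe, the 3 heavy chain genes gave small differences of both signs. Kif5c, the neuron-enriched heavy chain, was at 5.81, 5.26, 5.31 and 5.22 in control replicates 1 to 4 and at 5.18, 5.18, 5.17 and 4.84 in R6/2. Every R6/2 array was below every control array, though 3 R6/2 arrays came close to the lowest control arrays. The difference was -0.31 ± 0.21 (unadjusted p = 0.182, limma adjusted p = 0.796), and -0.17 without control replicate 1. Kif5a, the heavy chain mutated in a form of hereditary spastic paraplegia, was at 2.13, 3.07, 1.97 and 2.54 in control and at 2.46, 2.56, 2.53 and 2.29 in R6/2. The R6/2 arrays sat inside the control range, with a difference of 0.036 ± 0.27. This probe is printed as 10 spots, whose SD within an array was 0.058 to 0.16, so that most of the control SD of 0.49 lies between arrays. The dimmer Kif5a probe, described below, gave 1.59 ± 0.63. Kif5b, the heavy chain found in most tissues, was at -0.26, -0.57, -1.08 and -0.34 in control and at -0.33, -0.023, -0.002 and -0.21 in R6/2. The groups overlapped, with a difference of 0.42 ± 0.23 (limma adjusted p = 0.760), and its other probe gave -0.11.

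By their brightest probe, the light chains were as close. Klc1, the light chain most abundant in neurons, was at 3.41, 3.33, 3.53 and 3.91 in control and at 3.51, 3.56, 3.30 and 3.07 in R6/2, a difference of -0.18 ± 0.22. The dimmer Klc1 probe gave -1.44 ± 1.06. Klc2 was at 0.94, 1.44, 0.73 and 0.073 in control and at 0.78, 1.13, 0.64 and 0.058 in R6/2. Both groups had a similar spread, and the difference was -0.14 ± 0.34. Klc3 and Klc4 gave -0.28 ± 0.59 and 0.10 ± 0.60, with intervals that reach past 2-fold both ways.

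Kinesin-2 drives transport in cilia and dendrites, as a heterotrimer of Kif3a, Kif3b or Kif3c with the adaptor Kifap3, or as the homodimer Kif17, which carries NMDA receptor subunits in dendrites. Of the 4 genes, 3 had negative differences, and the median was -0.41. Kif3c was at 0.083, 0.37, 0.60 and 0.24 in control and at -0.30, -0.53, 0.20 and -0.018 in R6/2. Only R6/2 replicate 3 reached into the control range. Its difference was -0.49 ± 0.23 (unadjusted p = 0.0650, limma adjusted p = 0.733). The authors' deposited table gives p = 0.0450 with a corrected p = 0.838. Under other settings the unadjusted limma p was 0.0440 (normexp) and 0.0254 (median centring). It was 0.0657 (quantile normalization), 0.0501 (probes well above background on all 8 arrays), 0.0851 (no filter on dim probes) and 0.0565 (1 probe a gene). Kif3a was at 1.92, 1.60, 2.17 and 2.18 in control and at 1.65, 1.35, 1.86 and 1.69 in R6/2, a difference of -0.33 ± 0.22, and its other probe gave -0.25. The groups overlapped there. Kif3b was spread widely in control, from -2.41 to -0.23, and gave -0.56 ± 0.49. Kifap3, which is outside the name rule, gave -0.074 ± 0.19.

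Kinesin-3 motors carry synaptic vesicle precursors and dense-core vesicles. Kif1a, the vesicle precursor motor of neurons, was at 4.60, 4.52, 4.04 and 4.12 in control and at 4.30, 4.23, 4.41 and 4.14 in R6/2. The R6/2 values lay inside the control range, and the difference was -0.051 ± 0.21, with a 95% interval from -0.52 to 0.42. Kif1b was at 4.39, 4.38, 4.31 and 4.61 in control and at 4.01, 4.23, 4.39 and 3.92 in R6/2 by its brightest probe. Of the R6/2 arrays, 3 were below all control arrays and replicate 3 was within them, with a difference of -0.29 ± 0.19 (limma adjusted p = 0.794). Of the other members, Kif1c gave 0.035, and Kif13a, Kif13b, Kif14 and Kif16b gave -0.82 to 0.47. None of the 7 genes reached an unadjusted p under 0.05 by its brightest probe, while the dimmer Kif1b probe, described below, did.

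Of 5 kinesin-4 genes 4 were measured, all with positive differences and a median of 0.26. Kif21a, a motor that also restrains microtubule growth, was at 3.52, 4.18, 3.78 and 4.23 in control and at 4.43, 4.18, 4.19 and 3.73 in R6/2. The groups overlapped, with a difference of 0.20 ± 0.25, and Kif21b gave 0.32 ± 0.45. Kif7, a regulator of hedgehog signalling in the cilium, was at -2.97, -3.62, -3.67 and -3.95 in control and at -2.87, -3.40, -2.25 and -1.61 in R6/2. The 2 highest arrays are R6/2 replicates 3 and 4, and the other 2 R6/2 arrays lay within or just above the control range. Its difference was 1.02 ± 0.40 (unadjusted p = 0.0341, limma adjusted p = 0.691). It was 0.71 without R6/2 replicate 4, with an unadjusted p = 0.0816. With normexp background correction in place of the software's own, it was 0.39 (unadjusted p = 0.0943). Kif27 gave 0.083 ± 0.55. For Kif7, control replicate 1 (-2.97) lay below the dimmest signal called well above background there (-2.78), so the size of its difference is uncertain. A further Kif7 probe was well above background on 1 array only.

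Kif2a, a kinesin-13 that takes microtubule ends apart and trims axon branches, was at 4.28, 4.10, 4.38 and 4.38 in control and at 3.77, 4.06, 4.21 and 3.99 in R6/2. R6/2 replicate 3 alone lay in the control range, and the difference was -0.28 ± 0.19 (unadjusted p = 0.175, limma adjusted p = 0.794). Its 2 other probes gave 0.014 and -0.005. For the brightest of the 3 probes the authors' deposited table gives p = 0.04997 with a corrected p = 0.838, and a 1.21-fold lower level in R6/2.

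Kif6 was the gene lower in R6/2 at an unadjusted p under 0.05. It was at -1.21, -0.83, -0.89 and -0.98 in control and at -1.22, -1.36, -1.41 and -1.76 in R6/2. The groups did not overlap, though control replicate 1 and R6/2 replicate 1 were almost level. The difference was -0.46 ± 0.20 (unadjusted p = 0.0498, limma adjusted p = 0.708), and the authors' deposited table gives p = 0.0167 with a corrected p = 0.823. Its 2 other measured probes, which share 47 bases, gave 0.43 and 0.20 and were well above background on 4 arrays each. Of the members whose role in transport is less clear, Kif19a gave 0.096 ± 0.23, and Kif24 gave 0.60 ± 0.33. The probe named Kif4b, whose accession is that of the pseudogene Kif4-ps in the newer gene table, gave 0.45 ± 0.41.

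**Figure D2:**
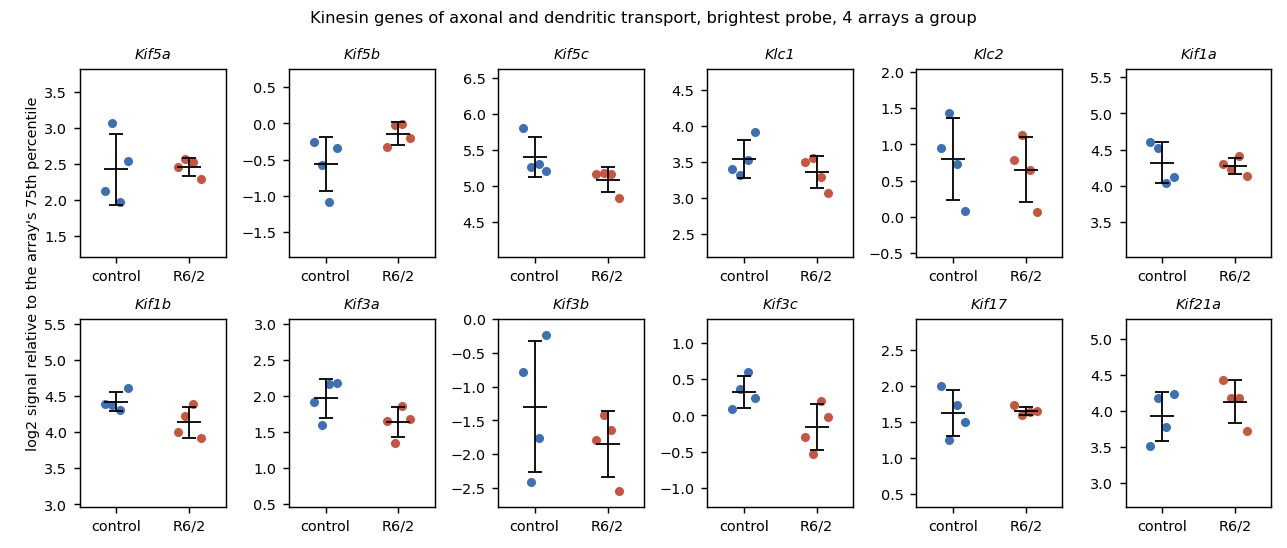
Log2 signal relative to the 75th percentile of the array (y axis, a range of its own in each panel) for 12 kinesin and kinesin light chain genes in the 4 control and 4 R6/2 arrays. Points are arrays from replicate 1 to 4, left to right, and black bars are the mean and SD. The groups are apart in Kif5c only, where the R6/2 arrays sit between 4.84 and 5.18 and the control arrays between 5.22 and 5.81.

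Several kinesins of cell division did not pass the filter for being measured. All 8 motor genes without a measured probe are among them, and 6 of the 93 probes were well above background on no array. Of those genes, Kif11 was well above background on 3 arrays and Kif18b on 2. Of the 4 kinesin-13 genes, Kif2b and Kif2c were not measured, and of 9 genes in other families with members that act in the spindle, 5 were not measured (Kif11, Kif18a, Kif18b, Kif20b and Kif23). Kif4, the chromosome-bound kinesin-4, was not measured either. The measured ones of those 9 genes, Kif12, Kif15, Kif20a and Kif22, gave differences from -1.78 to 0.53, none with an interval within 2-fold. Kif22 shows the scatter at these levels, with 0.26, -1.93, -1.57 and -0.31 in control and -3.73, -1.52, -0.35 and -5.05 in R6/2. Its difference was -1.78 ± 1.01 (limma adjusted p = 0.766). Kif14 (0.47 ± 0.39) and Cenpe (0.31 ± 0.35), placed in other groups here, were well above background on all 8 arrays by their brightest probe. Kifc1, also placed elsewhere, was so on 2 control and 4 R6/2 arrays. The other Kif14 probe was well above background on none of the 8 arrays (mean level -5.64). Of 14 marker genes of dividing cells, 10 were measured and 1 was above background on no array. The summed linear level of the 14 was 3.30 to 3.67 in control and 2.04 to 3.84 in R6/2, and their part in these values was not tested.

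For 2 further probes, all control arrays lacked a signal well above background while 3 R6/2 arrays had one, so that only a bound can be given. A fold is then the R6/2 mean over the dimmest signal that the software still called above background on that control array, or over the probe's own signal where that was higher. By this measure Kif26a A_52_P218379 was at least 1.48-fold higher in R6/2 and Kif9 A_55_P2035519 at least 1.43-fold higher. Both R6/2 means include the R6/2 array that lacked such a signal. The share of all probes with this pattern was not determined. On average 76.0% of probes were well above background in R6/2 and 66.6% in control. Without R6/2 replicate 1, the highest Kif26a array at -1.64, no bound above 1 is left for Kif26a (mean of -4.32 in R6/2 against -4.22 in control at the bound), and R6/2 replicate 2 (-5.67) was below 3 of the control arrays. For Kif9 the bound was 1.09 to 2.06 with 1 array left out in turn, lowest without R6/2 replicate 3. Leaving out arrays here was chosen after seeing the data. The measured means were -5.18 ± 0.95 and -3.65 ± 1.69 for Kif26a and -5.55 ± 0.86 and -3.84 ± 0.99 for Kif9. Both failed the filter for testing, and a fit without that filter gave unadjusted p-values of 0.103 and 0.0179 and a limma adjusted p of 0.816 for each. The other Kif26a probe, measured on all arrays, gave -0.018 ± 0.36, and the brightest Kif9 probe gave -0.18 ± 0.25.

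Cytoplasmic dynein-1 is built on the heavy chain Dync1h1, which holds the motor domain. Dync1h1 was at 2.42, 2.62, 1.82 and 2.49 in control and at 2.14, 2.01, 2.86 and 2.42 in R6/2. The groups overlapped throughout, with a difference of 0.021 ± 0.27. The 95% interval, -0.60 to 0.64, leaves out a 2-fold difference either way.

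The intermediate chains link the heavy chain to dynactin. Dync1i1, the form typical of neurons, was at 5.80, 6.83, 6.16 and 6.31 in control and at 5.81, 5.95, 6.20 and 6.14 in R6/2. The R6/2 arrays lay inside the control range, and the difference was -0.25 ± 0.25. Its overlapping probe A_55_P2150496, shown above, gave -0.27 ± 0.27. Dync1i2, the form present in most cells, was at 4.76, 5.09, 4.86 and 5.27 in control and at 4.72, 4.98, 5.21 and 5.37 in R6/2, a difference of 0.071 ± 0.22. The light intermediate chains bind cargo adaptors. Dync1li2 gave 0.17 ± 0.23, and Dync1li1 gave 0.90 ± 0.61 (limma adjusted p = 0.795). In Dync1li1 a single array stood high, R6/2 replicate 3 at -0.29, while the others lay between -3.41 and -1.73. Without it the difference was 0.34.

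The light chains, which are small dimers at the base of dynein, were on both sides of 0 in 6 genes, with differences from -0.35 to 0.22. Dynll2, a light chain shared with myosin Va, was at 6.60, 6.25, 5.70 and 5.95 in control and at 6.66, 5.70, 6.05 and 5.68 in R6/2. The groups spanned the same range, and the difference was -0.10 ± 0.30, with 0.001 at its other probe. Dynll1 gave -0.35 ± 0.33, Dynlrb1 gave 0.084 ± 0.20 and Dynlt3 gave 0.039 ± 0.20. For the last pair the intervals lay within 1.5-fold. Dynlt1c gave 0.14 ± 0.33. The probe named Dynlt1e gave 0.12 ± 0.30, and its accession belongs to Dynlt1f in the newer gene table. Both belong to a set of near-identical copies, whose signals may be shared between probes. Dynlrb2, the roadblock chain typical of ciliated cells, stood at -0.26 in control replicate 1 and -0.11 in R6/2 replicate 1, against -3.33 to -1.79 in the other 6 arrays. Of 10 ependymal markers 8 were measured, and the summed linear level of the 10 was 4.12 to 6.03 in control and 2.13 to 5.84 in R6/2. Their part in Dynlrb2 was not tested. Dynein-2, the motor that returns cargo within cilia, had Dync2h1 at -0.094 ± 0.56 and Dync2li1 at 0.84 ± 0.56.

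Dynactin was measured through all 6 Dctn genes, of which 2 had positive and 4 negative differences. Dctn1, the p150Glued subunit that binds microtubules and dynein, was at 1.16, 1.64, 1.45 and 1.13 in control and at 1.54, 1.46, 1.21 and 1.42 in R6/2. The R6/2 arrays lay inside the control range, with a difference of 0.057 ± 0.20 and a 95% interval from -0.40 to 0.52. Dctn3, the p24 subunit of the shoulder, was at 5.60, 6.13, 6.07 and 5.91 in control and at 5.23, 5.55, 5.67 and 5.74 in R6/2. Only control replicate 1 reached down to the R6/2 arrays, and the difference was -0.38 ± 0.21 (limma adjusted p = 0.763).

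Dctn2, dynamitin, which ties the shoulder to the rod, was at -0.013, -2.13, -0.075 and 0.24 in control and at 0.75, 0.026, 0.15 and 0.71 in R6/2. Control replicate 2 stood apart from all others. The difference was 0.90 ± 0.52 (limma adjusted p = 0.768) and 0.36 without that array. The subunits of the pointed end, Dctn4, Dctn5 and Dctn6, gave -0.045 ± 0.22, -0.22 ± 0.19 and -0.19 ± 0.19. Of the Dctn6 probes shown above, the other gave 0.089 ± 0.28. The intervals of all Dctn genes but Dctn2 lay within 2-fold.

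**Figure D3:**
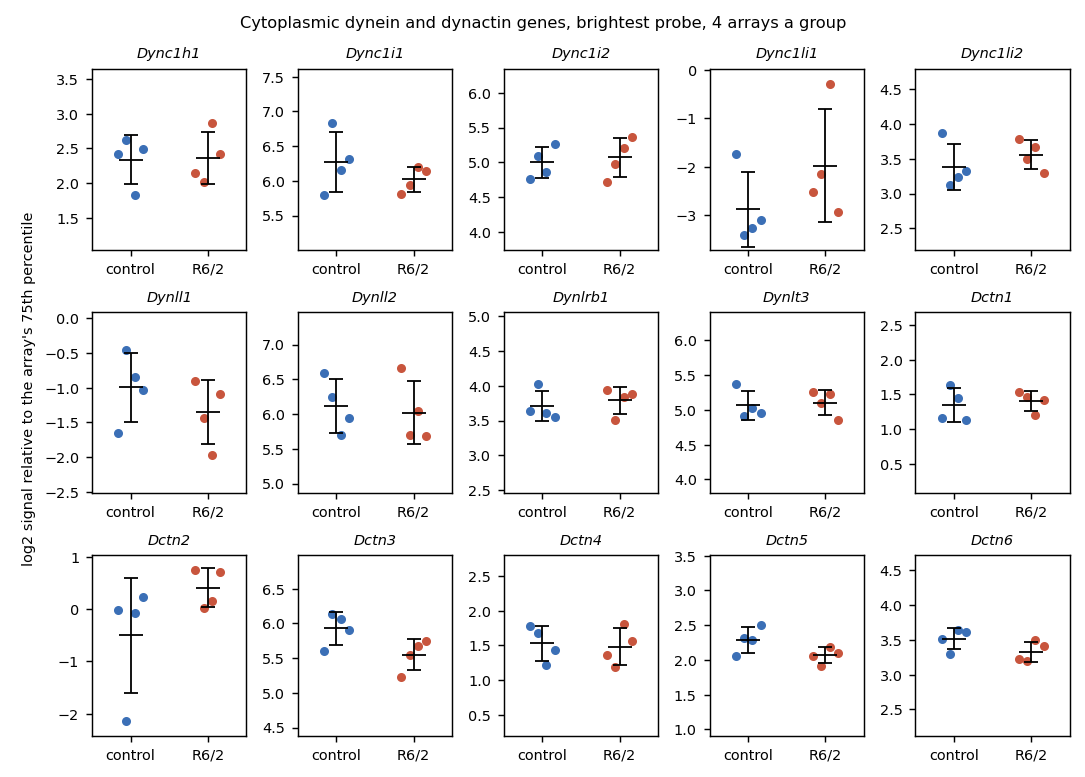
Log2 signal relative to the 75th percentile of the array (y axis, a range of its own in each panel) for 15 dynein and dynactin genes in the 4 control and 4 R6/2 arrays. Points are arrays from replicate 1 to 4, left to right, and black bars are the mean and SD. The groups overlap in every panel, and Dctn2 in control replicate 2 (-2.13) and Dync1li1 in R6/2 replicate 3 (-0.29) stand apart from their groups.

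Probes of the same gene often gave unlike differences. Of 19 motor genes with 2 or 3 measured probes, 14 had differences of both signs (73.7%). Over the whole array 47.0% of 7120 genes with 2 or 3 measured probes did, not matched in brightness or number of probes. Some of the 14 lay near 0, such as Dynll2 (0.001 and -0.10). The median gap between the highest and the lowest difference of a gene was 0.65, against 0.42 over the whole array, and it was over 1 in 6 genes (31.6%), against 15.0% over the whole array. The gap was 0.019 in Dync1i1 and 0.022 in Dctn4, whose probes overlap by 18 and 55 bases, and 2.11 in Kif26b. The other overlapping pairs gave 0.089 and -0.19 in Dctn6 (23 shared bases) and 0.43 and 0.20 in Kif6 (47 shared bases). The probes of Kif26b gave 0.46 ± 0.58 and -1.65 ± 0.85.

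Of the 3 probes higher in R6/2 at an unadjusted p under 0.05, those of Kif1b and Kif5a belong to genes whose brightest probe did not do the same. Kif1b A_65_P12993 was at -3.79, -3.93, -1.77 and -3.26 in control and at -0.89, -1.84, -1.67 and -2.22 in R6/2. Control replicate 3 lay among the R6/2 arrays. Control replicate 1 lay below the dimmest signal called well above background there (-2.78). The difference was 1.54 ± 0.51 (unadjusted p = 0.0149, limma adjusted p = 0.634), while A_55_P2058933, annotated to another transcript, gave -0.29. With normexp background correction the difference was 0.70 (unadjusted p = 0.0316). The unadjusted p was 0.000626 to 0.0431 with each array left out in turn. Kif5a A_55_P2167070 was at -2.34, -3.54, -4.47 and -2.90 in control and at -0.39, -1.22, -2.43 and -2.86 in R6/2. R6/2 replicates 1 and 2 were the high arrays. Control replicate 3 lay below the dimmest signal called well above background there (-4.29). The difference was 1.59 ± 0.63 (unadjusted p = 0.0342, limma adjusted p = 0.691), and without R6/2 replicate 1 it was 1.15 (unadjusted p = 0.0873), against 0.036 at A_51_P107020. With normexp it was 0.71 (unadjusted p = 0.0586). With a control array not well above background in each, the sizes of the Kif1b and Kif5a differences are uncertain.

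The probes of Kif17 were also unlike each other. The brightest gave 0.033 ± 0.21, with R6/2 arrays from 1.59 to 1.73 inside a control range of 1.25 to 2.00. The upstream probe A_55_P2010681, annotated to an Ensembl transcript, was at 0.592, 0.995, 1.254 and 1.496 in control and at -0.63, 1.75, -0.73 and -0.66 in R6/2. Of the R6/2 arrays, 3 were below all controls and replicate 2 was above them all, for a difference of -1.15 ± 0.56 (unadjusted p = 0.0718, limma adjusted p = 0.736). The probe split over an intron gave -0.88 ± 0.52. The second probe of Klc1 gave -1.44 ± 1.06 and that of Kif3b 0.61 ± 0.76, both with intervals that include 0.

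**Figure D4:**
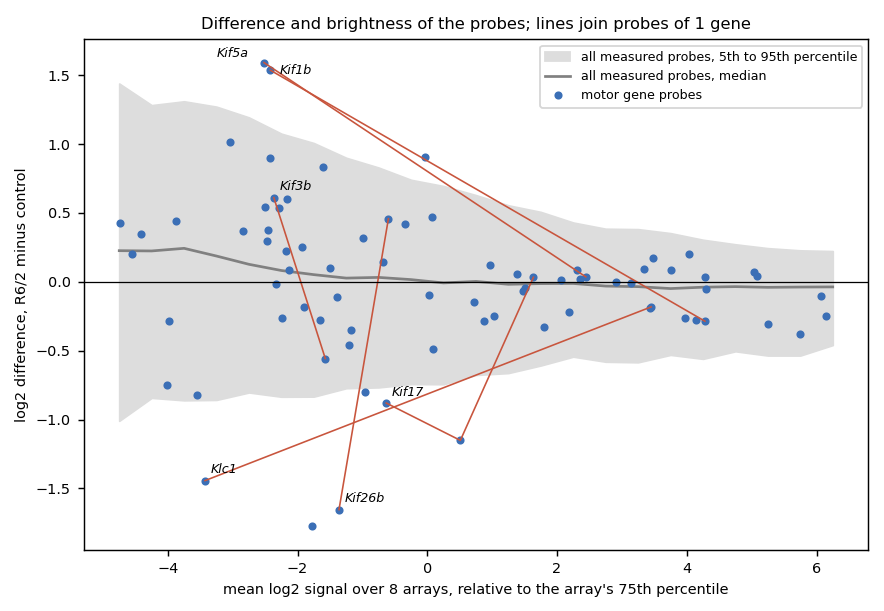
Mean log2 signal over 8 arrays relative to the 75th percentile (x axis) against the log2 difference of R6/2 minus control (y axis) for the 78 measured motor probes (blue), with the median and the 5th to 95th percentile of all measured probes in steps of level (grey). Red lines join probes of 1 gene for the 6 genes with a gap over 1. The dim ends of Kif1b (1.54) and Kif5a (1.59) lie high, while their bright ends are at -0.29 and 0.036.

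Genes that work with the motors but fall outside the name rule were read from lists. None of their genes passed the threshold. For the counts of each list, the share of all tested probes at an unadjusted p under 0.05 is 7.02%. The remaining dynactin genes, which form the Arp1 filament and its caps, had 6 measured of 6, with 5 positive differences, a median of 0.098 and 0 at an unadjusted p under 0.05. Actr1a, the Arp1 of the filament, gave 0.34 ± 0.25 (limma adjusted p = 0.806). Of 48 adaptors and regulators of dynein and kinesin, 47 were measured, of which 35 had negative differences. Their median was -0.13, and again 0 were at an unadjusted p under 0.05. The median over all tested probes was 0.051. Among the 9244 of these with a mean level over 1 it was -0.026, with 4981 negative. The smallest p-values of the adaptors and regulators were those of Nde1, a dynein regulator (-0.87 ± 0.46), and of the dynein adaptor Hook1 (-0.46 ± 0.25). Hook3 (0.73 ± 0.44) and Ndel1 (-0.55 ± 0.33) came next. In Nde1 a single array stood low, R6/2 replicate 4 at -0.145, while the others lay between 1.615 and 2.409. In Hook3 it was control replicate 2, at -0.164 against 1.552 to 2.137. Huntingtin and its partner Hap1, which link vesicles to dynactin and kinesin and are named here for that role, gave 0.27 ± 0.26 and -0.26 ± 0.34.

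Of 26 listed genes of intraflagellar transport and dynein-2, 23 were measured, with 11 positive and 12 negative differences, a median of -0.014 and 0 at an unadjusted p under 0.05. Ift81, Ift27, Ift80 and Ift88 had the smallest p-values, with differences of -0.72, -1.23, 0.50 and 0.43. Ift27 was lowest in R6/2 replicate 1, at -3.617 against -1.329 to 0.547 in the other arrays. The 4 measured kinesins with other names, Kifc1, Kifc2, Cenpe and Kifc3, gave 1.43, -0.27, 0.31 and -0.005. Of 16 axonemal dynein genes on the array, the motors of moving cilia, 8 were measured, with 6 positive differences, a median of 0.29 and 0 at an unadjusted p under 0.05.

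The microtubule list had the only genes at an unadjusted p under 0.05, 5 of 52 measured (2 higher, 3 lower), where the share over all tested probes is 7.02% (3.97% higher, 3.05% lower), with 22 positive and 30 negative differences and a median of -0.037. Dcx, doublecortin, which stabilises microtubules in young neurons, was at 0.87, 0.44, 0.61 and 0.80 in control and at 1.34, 2.34, 1.73 and 2.03 in R6/2. Every R6/2 array was above every control array, with a difference of 1.18 ± 0.26 (unadjusted p = 0.00145, limma adjusted p = 0.485). Dcx is also 1 of 7 neuroblast markers, of which 6 were measured, all with positive differences. Their summed linear level was 5.85 to 13.4 in control and 10.0 to 14.0 in R6/2, and their part in Dcx was not tested. Fign, a severing enzyme, gave 2.88 ± 0.76 (limma adjusted p = 0.564) and was well above background on 2 of 4 control arrays. Control replicates 1 (-4.81) and 4 (-6.87) lay below the dimmest signal called well above background there (-2.78 and -4.92). The size of the Fign difference is therefore uncertain. The 3 genes lower in R6/2 were Ttl, which puts tyrosine back on tubulin (-0.74 ± 0.24), the tubulin deacetylase Hdac6 (-0.77 ± 0.25) and the minus-end protein Camsap2 (-0.69 ± 0.28). Their limma adjusted p-values were 0.634, 0.634 and 0.691. In Ttl the groups did not overlap, with control arrays from 0.35 to 1.09 and R6/2 arrays from -0.35 to 0.22.

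The sorted cells carried MSN markers in both groups. All 16 listed MSN markers were measured and had negative differences, with a median of -0.54. At an unadjusted p under 0.05 were 8 of them, against 7.02% of all tested probes (3.05% lower in R6/2), though none passed the threshold. Their summed linear level was 1190 to 1440 in control and 833 to 940 in R6/2. Scn4b, whose reporter was used for the sort, gave -1.15 ± 0.29 (limma adjusted p = 0.552). Oligodendrocyte markers, 8 of 8 measured, summed to 12.7 to 67.6 in control and 12.5 to 20.7 in R6/2, and microglial markers, 6 of 7, to 19.8 to 32.2 and 25.6 to 31.8. Their part in the motor genes was not tested.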

How the data were processed

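Per the file headers, each array's spot intensity was made by the authors with Agilent Feature Extraction 10.7.3.1 (spatial and multiplicative detrending, no scaling between arrays), with probe positions on mm9. Other scanner flags, such as well above background, were used as deposited. The deposited table of the whole series gives the authors' log2 values, which matched the values here to within 0.001 to 0.007 in the median. Its p-value (unpaired t-test, Benjamini-Hochberg corrected) and fold change are quoted as the authors'.

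Processed intensity was taken to log2, without outlier spots, averaged over the spots of a probe, and set relative to the array's 75th percentile over non-control probes. In R6/2 replicate 3, 1 garbled line was left out. Probes well above background on at least 4 arrays were fitted with limma 3.58.1 in R 4.3.3 (lmFit, eBayes, two-sided, genotype only), adjusted over all 41378, after a check on simulated data. Genes named are motor subunits of axonal transport and dynactin, those at an unadjusted p under 0.05 or with separate groups, those seen in 1 group only, and up to 4 a list with the smallest p. Huntingtin and Hap1, and Kif22, Kif26b, Kifap3, Actr1a and single values of other members, were added. The members, lists and rules were chosen with earlier results of these data known. Symbols outside the motor genes follow a GRCm38.p6 table. The linear level is 2 to the power of the log2 level. The number of arrays limits the precision. Same-numbered replicates did not deviate together (correlations -0.0427 to 0.0222). Alternatives were other normalizations, filters, summaries, weights, a replicate block and leaving out arrays.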

Additional observations from a re-analysis of the deposited data

Results flagged for a closer look

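Among 70 sets of 4 arrays checked for 1 array far from the others, 4 stood out, and chance gives about 3.5. In Dctn2 control replicate 2 was low, at -2.13 against -0.075 to 0.24 in the other control arrays. In Dynlt1c control replicate 3 was low, at -1.59 against -0.51 to -0.40. Kif5c had such an array in each group. Control replicate 1 was high, at 5.81 against 5.22 to 5.31, and R6/2 replicate 4 was low, at 4.84 against 5.17 to 5.18.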

How the results depend on the processing

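No motor probe and no gene of the pathway lists passed the threshold under any of the 19 alternatives, and the lowest adjusted p of a named motor probe was 0.494. Of 658 values of 35 named probes, 616 kept their sign and 42 did not, and 19 probes never changed sign. The count of 4 motor probes at an unadjusted p under 0.05 (3 higher, 1 lower) and of 2 with separate groups moved as follows, the cause not being tested. The share of all tested probes at p under 0.05 was 7.02%, 7.08% with normexp, 6.57% with quantile normalization and 7.23% with median centring. It was 8.00% on all 8 arrays, 5.68% without a filter, 7.15% with 1 probe a gene and 7.23% with the mean of a gene's probes. With the methods' t-test it was 6.75%, with weights 8.02%, with the block 6.66% and with 1 array left out 5.82% to 7.40%. The share with separate groups was 4.57%, 4.27% with normexp, 4.81% with quantile normalization and 4.6% with the mean of a gene's probes. With normexp background correction 1 was higher, 2 were lower and 1 had separate groups. With quantile normalization 1 had separate groups, and Kif1a was at 0.014. With median centring 3 were lower and 5 had separate groups (4.91% of all tested probes), and signs turned for Dctn1 (-0.041), Dynlrb1 (-0.014), Dynlt3 (-0.059), Dync1h1 (-0.076), Dync1i2 (-0.026), Kif5a (-0.061) and Kif17 (-0.065). Over the 59 motor probes well above background on all 8 arrays 1 was at p under 0.05 and 0 were higher, fewer probes being tested. Without a filter on dim probes 0 of 93 were lower. With 1 probe a gene 2 of 54 were at p under 0.05, 1 of them higher. With the mean of a gene's probes it was 1, higher, with 0 lower and 1 with separate groups, and signs turned for Kif17 (-0.67), Kif3b (0.027), Kif1a (0.099), Kif1b (0.63) and Kif6 (0.058). The methods' t-test gave 1 higher and 2 lower, and 8 genes of the pathway lists at p under 0.05 against 5. Array quality weights gave 7, with 3 lower, and turned Dctn4 (0.047), Dynll2 (0.003), Klc2 (0.12), Kif1a (0.073) and Dynlt1e (-0.013). With the replicate block 3 were at p under 0.05, 2 higher and 1 lower, and the gene median was 0.034. Leaving out 1 array in turn gave 1 to 6 at p under 0.05, 1 to 3 higher, 0 to 3 lower, 3 to 10 with separate groups, a gene median of -0.12 to 0.058, 5 to 9 pathway genes at p under 0.05, and a gap in the share of probes well above background of 3.94 to 12.6 percentage points. Over those, the difference ran from -0.014 to 0.16 in Dctn1, -0.16 to 0.055 in Dctn4, -0.31 to 0.057 in Dynll2, -0.14 to 0.31 in Dynlt1c, -0.011 to 0.14 in Dynlt3, -0.15 to 0.14 in Dync1h1, -0.029 to 0.19 in Dync1i2, -0.12 to 0.25 in Kif5a, -0.38 to 0.071 in Klc2, -0.090 to 0.16 in Kif17, -0.15 to 0.043 in Kif1a and -0.083 to 0.29 in Dynlt1e. A slide block could not be fitted, since the second slide holds 1 array.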
